A study of Rattus norvegicus with 12 samples.

Results

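Metalloproteinases and their tissue inhibitors were followed in rat lung through 9 genes: Mmp2, Mmp8, Mmp9, Mmp12, Mmp14 and Adamts1, which encode proteinases, and Timp1, Timp2 and Timp3, which encode inhibitors. They were all probe sets whose platform annotation named one of these genes and no other, which gave 16 probe sets of 31099 on the array and 9 of its 14217 singly named genes. The right lung of 12 rats was profiled on Affymetrix arrays, with 3 arrays in each of 4 groups: HTV-ventilated Dahl salt-sensitive rats (SS HTV), control Dahl salt-sensitive rats (SS control), HTV-ventilated Brown Norway rats (BN HTV) and control Brown Norway rats (BN control). The SS rat is an inbred model of salt-induced hypertension and the BN rat is an inbred strain often set against it. The labels abbreviate the ventilation as HTV without spelling it out, give no age, sex, time or ventilator setting, and describe all 12 arrays as lungs exposed to room air with the word ventilation in brackets, so whether controls breathed on their own or were ventilated in another mode is unknown. Animals of all groups weighed 250 to 350 g, the lung vessels were flushed with saline, and no group carried a transgene or drug that the labels name. The arrays of a group carry separate animal codes. Whole lung was measured, so fewer cells of a type and less RNA per cell cannot be told apart.

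Matrix metalloproteinases are zinc enzymes that are made as inactive proenzymes and, once activated, cut collagens, elastin, laminins and other proteins of the extracellular matrix. TIMPs bind the active site and block it, and TIMP2 also takes part, with MMP14 on the cell surface, in the activation of pro-MMP2. In the lung, MMP8 and MMP9 are stored in neutrophil granules, MMP12 is the elastase of macrophages, and MMP2, MMP14 and the TIMPs come largely from fibroblasts, endothelium and epithelium. Transcript levels, as measured here, do not give the amount of enzyme released or its activity.

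Values were deposited as linear intensities, and a difference between groups is given on the scale log2(intensity + 16), where 1 unit is a doubling for bright genes and where changes of dim genes are understated. Fold values are likewise folds of intensity + 16, and for dim genes they are smaller than folds of the intensities themselves. Probe sets were tested where the mean of these log2 values over the 12 arrays lay at or above the 40th percentile, which equals an intensity of about 42.2. There were 18625 of them, and limma's p-values were corrected by the Benjamini-Hochberg method across that whole set, with a call at an adjusted p of 0.05. Each gene was represented by its brightest tested probe set; 14 of the 16 probe sets and all 9 genes were tested. The median intensity of an array was 58.5 to 68.1. SS control 3 stood apart: at 35 probe sets that separate the other arrays of the strains, it lay on the BN side of the midpoint at 13, against 0 at the like sets for each of the other 11 arrays, and it had the lowest array weight, 0.287. BN HTV 3 had lower levels of the neutrophil-associated genes than the other BN HTV arrays. The log2 ratio of the beta-actin 5-prime to 3-prime probe sets, a sign of RNA or labelling quality, ran from -1.01 to -0.39 in SS HTV, -1.40 to -0.23 in SS control, -1.35 to -1.15 in BN HTV and -1.46 to -0.88 in BN control lungs, and SS control 3 was the lowest SS array. For the representative probe sets of the 9 genes, results that rest on SS control 3 or BN HTV 3 are given with and without them. For their other probe sets and for the other genes named below, no value without these arrays is given.

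The RefSeq promoter table, on the rat build GRCr8, held a window for 6 of the 9 genes. Shown here are the 250 bases before the start of the collagenase Mmp8 and the elastase Mmp12, which lie in the same gene cluster and of which Mmp8 was called for HTV and Mmp12 was not, of Adamts1, the member with the smallest p in both strains, and of the inhibitor Timp1. The windows are chr8:13008640-13008889 on the plus strand for Mmp8, chr8:12866402-12866651 on the plus strand for Mmp12, chr11:38427385-38427634 on the minus strand for Adamts1 and chrX:3771123-3771372 on the minus strand for Timp1. Capitals mark matches, on either strand, to the letters of the AP-1 motif (TGANTCA), of an AP-1 variant known from rodent Timp1 (TGAGTAA), of the TATA box (TATAAA) and of the GC box (GGGCGG).
Mmp8: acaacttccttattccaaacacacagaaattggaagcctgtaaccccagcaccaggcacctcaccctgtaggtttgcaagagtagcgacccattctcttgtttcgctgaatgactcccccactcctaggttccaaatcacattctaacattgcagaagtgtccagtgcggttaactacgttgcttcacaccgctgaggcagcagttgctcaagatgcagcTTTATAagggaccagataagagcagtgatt
Mmp12: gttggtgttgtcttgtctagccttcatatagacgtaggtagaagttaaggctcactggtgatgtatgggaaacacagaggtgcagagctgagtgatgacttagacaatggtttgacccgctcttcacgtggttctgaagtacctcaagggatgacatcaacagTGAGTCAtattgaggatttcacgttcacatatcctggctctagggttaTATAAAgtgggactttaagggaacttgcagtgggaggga
Adamts1: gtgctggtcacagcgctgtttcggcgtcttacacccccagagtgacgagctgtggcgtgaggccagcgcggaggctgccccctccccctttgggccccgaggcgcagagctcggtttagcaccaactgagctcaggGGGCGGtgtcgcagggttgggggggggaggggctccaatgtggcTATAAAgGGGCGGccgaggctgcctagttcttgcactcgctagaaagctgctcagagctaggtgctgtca
Timp1: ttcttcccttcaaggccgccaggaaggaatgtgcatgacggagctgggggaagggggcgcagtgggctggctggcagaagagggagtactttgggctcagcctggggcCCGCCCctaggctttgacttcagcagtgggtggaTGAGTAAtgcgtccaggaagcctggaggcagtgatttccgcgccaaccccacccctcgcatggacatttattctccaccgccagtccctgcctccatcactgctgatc
These motifs were picked as classical elements of metalloproteinase and TIMP promoters. The AP-1 letters were present in the Mmp12 window, 87 bases before the start, and in 6.34% of all 33469 windows of this length. The variant was present in the Timp1 window, 108 bases before the start, and in 2.38% of all windows. It was listed because it is known from rodent Timp1, so its match there is no finding by itself. The Mmp8, Mmp12 and Adamts1 windows held the TATA letters, at 30, 39 and 70 bases before the start, against 12.9% of all windows. The Adamts1, Timp1, Timp2 and Timp3 windows held the GC box letters, against 30.5% of all windows. Adamts1 held them at 2 places, and Timp3 at 158, 130 and 75 bases before the start. The GC content was 48.0% for Mmp8, 45.6% for Mmp12, 65.2% for Adamts1, 61.2% for Timp1, 72.0% for Timp2 and 69.6% for Timp3, with a median of 51.2% over all windows. A match of letters is a description of the sequence and not a measured binding site.

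**Figure D1:**
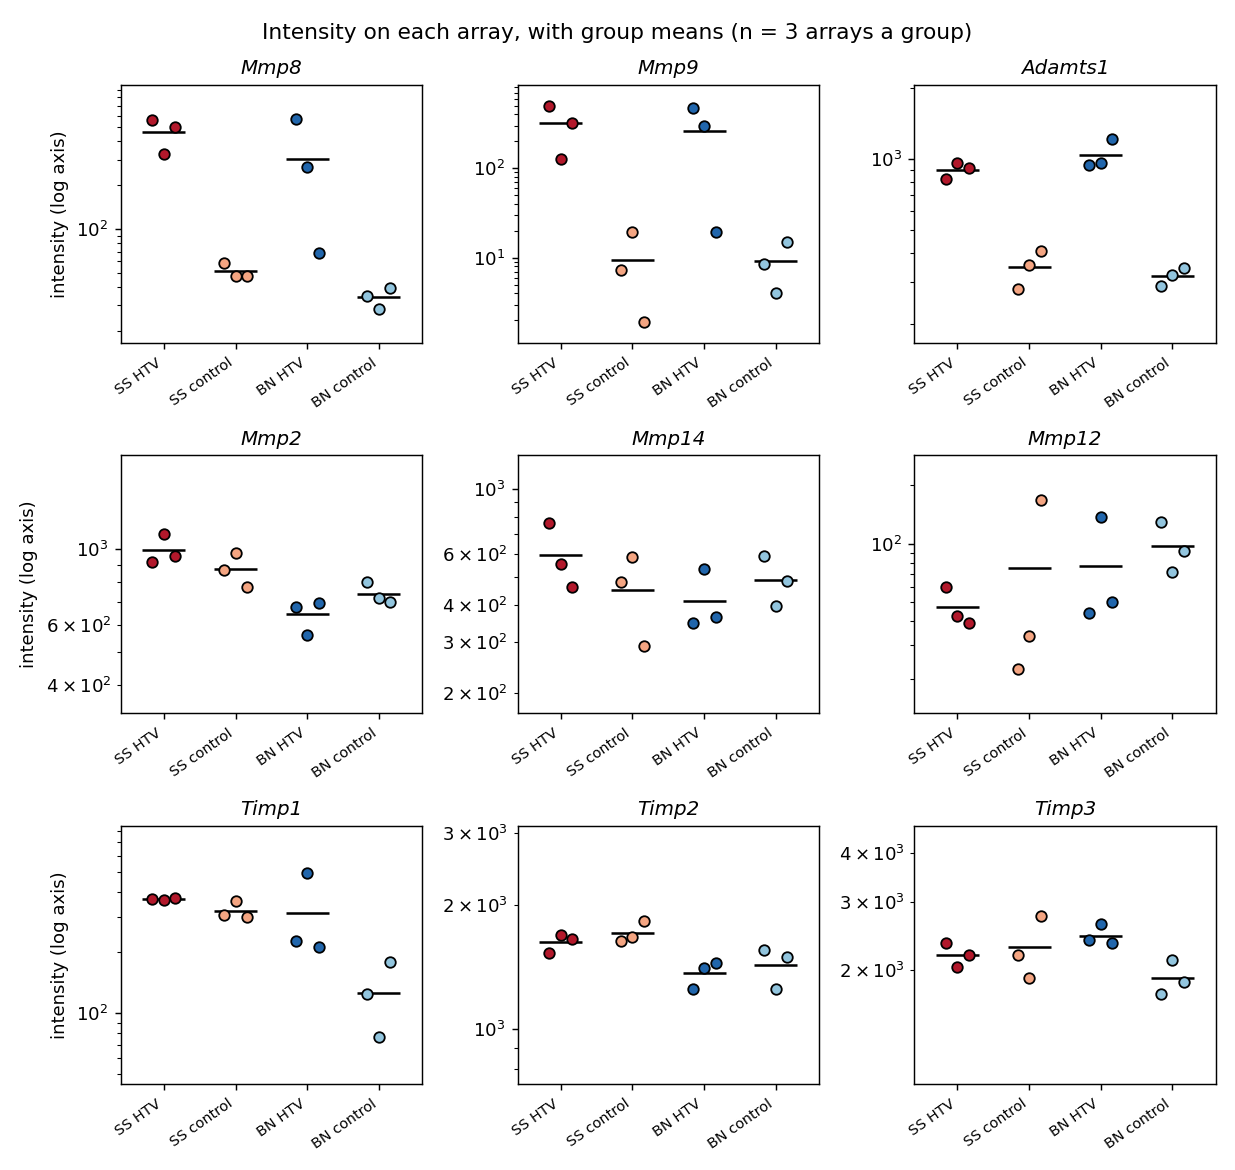
Intensity (log axis) of the 9 genes' representative probe sets on each of the 12 arrays, by group; points are arrays and bars are group means. Mmp8, Mmp9 and Adamts1 sat higher on every HTV array than on every control array of the same strain, and Timp1 was lowest in BN control lungs. Of all tested probe sets, 14.0% in SS and 10.9% in BN lungs were likewise higher on every HTV array.

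HTV was followed by higher levels of Mmp8, Mmp9 and Adamts1 in both strains and of Timp1 in BN lungs, and no member was called lower. In SS lungs 3 of the 9 genes were called, all higher, where 8.06% of the tested probe sets were called in either direction, 3.91% higher and 4.16% lower. In BN lungs 4 of the 9 genes were called, all higher, where 5.82% of the tested probe sets were called, 2.96% higher and 2.86% lower. These counts include Mmp8 and Mmp9, whose means over the control arrays of both strains lay below the filter, so both were tested through the HTV arrays. Of the other 4 proteinase genes 1 was called in SS and 1 in BN lungs. Of the 3 inhibitors 0 were called in SS and 1 in BN lungs. The median change of the 9 genes was 0.19 in SS lungs and 0.36 in BN lungs, beside -0.01 and -0.03 over all 10554 tested genes. Taken as the mean of both strains, 4 of the 9 were called higher, where 15.7% of probe sets were called, 7.02% higher and 8.71% lower.

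**Figure D2:**
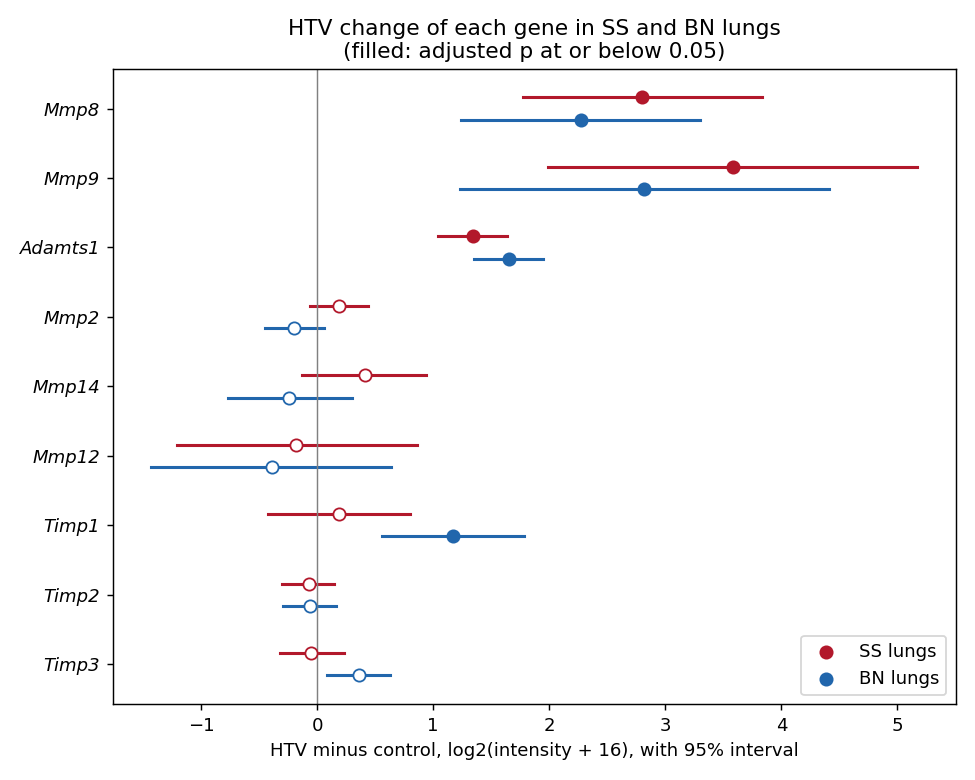
HTV minus control change of each of the 9 genes on the log2(intensity + 16) scale, in SS and in BN lungs, with limma's 95% intervals. The changes of Mmp8, Mmp9 and Adamts1 lay above 0 in both strains, the Timp1 interval lay above 0 in BN and not in SS lungs, and Mmp2 and Mmp14 had estimates of opposite sign in the strains.

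Mmp8 encodes neutrophil collagenase, which cuts fibrillar collagens. Its intensity was 559.8, 326.0 and 499.1 in SS HTV lungs, against 58.1, 47.8 and 47.9 in SS control lungs. In BN HTV lungs it was 573.0, 264.6 and 68.2, against 34.7, 28.2 and 39.4 in BN control lungs. The groups did not overlap in either strain, which held for 29.8% of probe sets in SS and 26.6% in BN lungs, and BN HTV 3 stood closer to the controls than to the other BN HTV arrays. The change was 2.80 ± 0.48 (limma SE) in SS lungs, 6.95-fold, with an adjusted p of 0.00359. In BN lungs it was 2.27 ± 0.48, 4.82-fold on the same scale, with an adjusted p of 0.0141 in limma. The mean over its control arrays of both strains lay just below the filter, so it too was tested through the HTV arrays. Its SS control arrays each lay above the filter intensity and its BN control arrays each lay below it. With no filter Mmp8 was called in BN lungs with an adjusted p of 0.0324 in limma. Without BN HTV 3 the BN change was 3.03 (adjusted p = 0.000109), and without BN HTV 1 it was 1.62 (adjusted p = 0.0408, both limma). The BN call was lost without BN control 2 (adjusted p = 0.0568) and without BN HTV 2 (adjusted p = 0.0612, both limma).

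Mmp9 encodes gelatinase B, which cuts denatured collagens and basement membrane collagen and also processes cytokines. Its brighter probe set read 502.6, 126.4 and 321.8 in SS HTV lungs, against 7.3, 19.3 and 1.9 in SS control lungs. It read 470.7, 296.0 and 19.2 in BN HTV lungs, against 8.5, 4.0 and 15.0 in BN control lungs. All 6 control arrays and BN HTV 3 lay below the intensity used as the filter, so the probe set was tested only because of the HTV arrays and its call in that direction carries little weight by itself. The change was 3.58 ± 0.74 in SS lungs, with an adjusted p of 0.0110 in limma, and 2.82 ± 0.74 in BN lungs, with an adjusted p of 0.0405. With no filter, limma's adjusted p was 0.0257 in SS and 0.0813 in BN lungs. Without BN HTV 3 the BN change was 3.98 (adjusted p = 0.000317), and without BN HTV 1 it was 2.08 and not called (adjusted p = 0.162, both limma).

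The dimmer Mmp9 probe set read 153.4, 67.9 and 152.3 in SS HTV lungs, against 16.8, 17.3 and 7.3 in SS control lungs. It read 245.4, 141.1 and 18.3 in BN HTV lungs, against 16.2, 14.1 and 13.1 in BN control lungs. The order of the BN HTV arrays was the same as with the brighter set, and all 6 control arrays were again below the filter, so this set too was tested through the HTV arrays. Its change was 2.18 ± 0.54 in SS lungs (adjusted p = 0.0255, limma) and 1.88 ± 0.54 in BN lungs, where the adjusted p of 0.0575 missed the threshold. The BN call for Mmp9 therefore rested on the brighter set.

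Adamts1 encodes a secreted proteinase that cuts the proteoglycans aggrecan and versican. It read 823.1, 955.6 and 918.7 in SS HTV lungs, against 281.8, 354.2 and 408.4 in SS control lungs. It read 945.0, 957.1 and 1210.7 in BN HTV lungs, against 288.4, 320.5 and 344.9 in BN control lungs. The spread within each group was small beside the gap between groups, and BN HTV 3 was here the highest array. The change was 1.34 ± 0.14 in SS lungs, 2.53-fold, with an adjusted p of 0.000106, and 1.65 ± 0.14 in BN lungs, 3.14-fold, with an adjusted p of 2.58e-05, both in limma. Leaving out any single array kept both calls, with changes of 1.20 to 1.46 in SS and 1.54 to 1.71 in BN lungs.

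Markers of neutrophils moved with Mmp8 and Mmp9. Of 17 listed neutrophil genes, 10 had a probe set of their own and 6 were tested, and 3 of these rose in SS and 4 in BN lungs, where 3.91% and 2.96% of probe sets were called higher. The summed intensity of the 10 genes was 5448 to 8747 in SS HTV lungs, against 1986 to 2412 in SS control lungs. It was 9253, 11895 and 3084 in BN HTV lungs, against 1199 to 2513 in BN control lungs, and the lowest BN HTV array was again BN HTV 3. Most of this sum came from S100a8, S100a9 and Lcn2. Lcn2 read 1371.1, 429.3 and 1953.1 in SS HTV lungs, against 585.6, 307.1 and 66.3 in SS control lungs, and was not called in either strain. S100a8, a subunit of calprotectin, which neutrophils carry in quantity, read 2569.7, 2736.7 and 711.4 in BN HTV lungs, against 194.4, 224.8 and 346.0 in BN control lungs. Its change was 2.16 ± 0.40 in SS and 2.71 ± 0.40 in BN lungs (adjusted p = 0.00586 and 0.00163, limma). Il1r2, the decoy receptor for interleukin-1, changed by 2.44 in SS and 2.74 in BN lungs. The means of Il1r2 and Cxcr2 over the control arrays of both strains lay below the filter, and of the other 4 tested markers 2 rose in SS and 3 in BN lungs. Camp, a granule peptide precursor, was below the filter but read 275.9, 79.4 and 271.2 in SS HTV lungs, against 16.9, 6.1 and 24.4 in SS control lungs. The defensins Np4 and Defa5 stayed between 4.9 and 17.0 on all arrays and Itgam between 5.7 and 73.3, all below the filter. The part of neutrophil number in the Mmp8 and Mmp9 result was not tested.

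**Figure D3:**
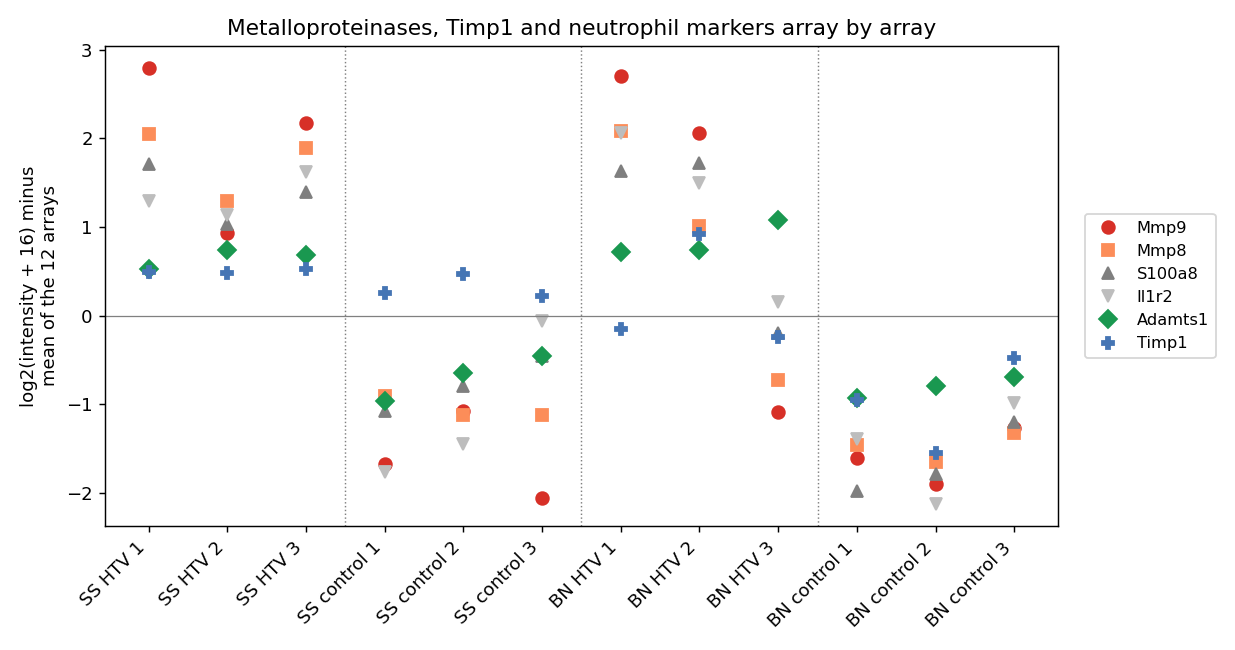
Log2(intensity + 16) of Mmp9, Mmp8, the neutrophil-associated S100a8 and Il1r2, Adamts1 and Timp1 on each of the 12 arrays, minus each gene's mean over the arrays; points are arrays. BN HTV 3 was the lowest HTV array for Mmp8, Mmp9, S100a8 and Il1r2, and the highest HTV array for Adamts1.

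The other marker sums overlapped between groups or moved little. Macrophage markers summed to 6025 to 7281 in SS HTV, 5614 to 6251 in SS control, 6015 to 7178 in BN HTV and 5906 to 6526 in BN control lungs, and of the 10 tested only the endotoxin receptor gene Cd14 rose, in SS lungs (1.14, adjusted p = 0.0051 in limma). Of 11 lung tissue markers and of 10 fibroblast and smooth muscle markers, limma called 0 for HTV in either strain. Of all tested probe sets 8.06% in SS and 5.82% in BN lungs were called, so 0 calls in lists this short say little. At an unadjusted p of 0.05 or less in limma there were 1 lung tissue marker in SS and 2 in BN lungs. The fibroblast and smooth muscle markers at that p were 2 in SS and 0 in BN lungs. The share of all probe sets at that unadjusted p is not given here. Taken as the mean of both strains, the lung tissue marker Aqp5 was called lower (-0.32, adjusted p = 0.00828, limma), where 8.71% of probe sets were called lower. The fibroblast and smooth muscle sum was 3973 to 4630 in SS HTV, 3731 to 4563 in SS control, 3950 to 4350 in BN HTV and 3835 to 4292 in BN control lungs.

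Mmp2, Mmp14 and Mmp12 were not called for HTV in either strain. Mmp2 encodes gelatinase A, which cuts basement membrane collagen. It read 920.3, 1108.8 and 959.0 in SS HTV lungs, against 867.3, 975.4 and 776.4 in SS control lungs. It read 677.9, 562.0 and 695.5 in BN HTV lungs, against 800.3, 720.1 and 700.8 in BN control lungs. The SS groups overlapped, whereas all BN HTV arrays lay below all BN control arrays, by a narrow gap. Groups did not overlap, in either direction, at 26.6% of probe sets in BN lungs. The change was 0.19 ± 0.12 in SS lungs (adjusted p = 0.335) and -0.20 ± 0.12 in BN lungs (adjusted p = 0.384, both limma). The second Mmp2 probe set read between 27.4 and 57.3 and was not tested.

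Mmp14 encodes the membrane-bound MT1-MMP. It read 763.7, 554.6 and 460.5 in SS HTV lungs, against 480.1, 584.2 and 290.0 in SS control lungs. It read 347.5, 530.3 and 364.9 in BN HTV lungs, against 588.7, 396.5 and 481.6 in BN control lungs. The groups overlapped in both strains. The change was 0.41 ± 0.25 in SS and -0.24 ± 0.25 in BN lungs (adjusted p = 0.327 and 0.660, limma). The second Mmp14 set read between 14.9 and 57.0 and was not tested.

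Mmp12 read 59.7, 42.3 and 38.9 in SS HTV lungs, against 22.7, 33.3 and 167.9 in SS control lungs, the highest value being SS control 3. It read 44.2, 136.7 and 50.0 in BN HTV lungs, against 130.2, 71.2 and 92.2 in BN control lungs. The array-to-array spread was wide and the groups overlapped in both strains. The change was -0.18 ± 0.48 in SS and -0.39 ± 0.48 in BN lungs (adjusted p = 0.844 and 0.716, limma). Without SS control 3 the SS change was 0.51 (adjusted p = 0.422, limma), of the other sign and also not called. Mmp12 and Mmp8 lie in one cluster on chromosome 8 that also holds Mmp13, Mmp1b, Mmp3, Mmp1, Mmp10, Mmp27, Mmp20 and Mmp7, by the order of genes in GRCr8. Of these 10 genes only Mmp8 and Mmp12 had a probe set bright enough to test.

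Among the inhibitors, Timp1 was the only gene whose representative probe set was called for HTV, in BN lungs. TIMP1 is a soluble, inducible inhibitor that binds pro-MMP9 as well as active enzymes. It read 365.7, 362.4 and 372.7 in SS HTV lungs, against 307.1, 357.5 and 300.0 in SS control lungs. It read 227.3, 497.0 and 212.0 in BN HTV lungs, against 124.2, 76.1 and 178.6 in BN control lungs. The groups did not overlap in either strain, but the SS gap was narrow and the BN control arrays were the lowest of the 12. Of all tested probe sets, 29.8% in SS and 26.6% in BN lungs had no overlap in either direction. The change was 0.19 ± 0.28 in SS lungs (adjusted p = 0.714, limma; 95% interval -0.42 to 0.80). In BN lungs it was 1.17 ± 0.28, 2.25-fold (adjusted p = 0.0285, limma). The BN call was lost with no filter (adjusted p = 0.0582), with only the BN arrays in the fit (adjusted p = 0.0797), and without BN control 1, BN control 2 (0.89, adjusted p = 0.115) or BN HTV 2 (0.79, adjusted p = 0.0918), all limma. As the mean of both strains the change was 0.68 ± 0.20 (adjusted p = 0.0358, limma), and this call was lost when 9 of the 12 arrays were left out in turn.

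**Figure D4:**
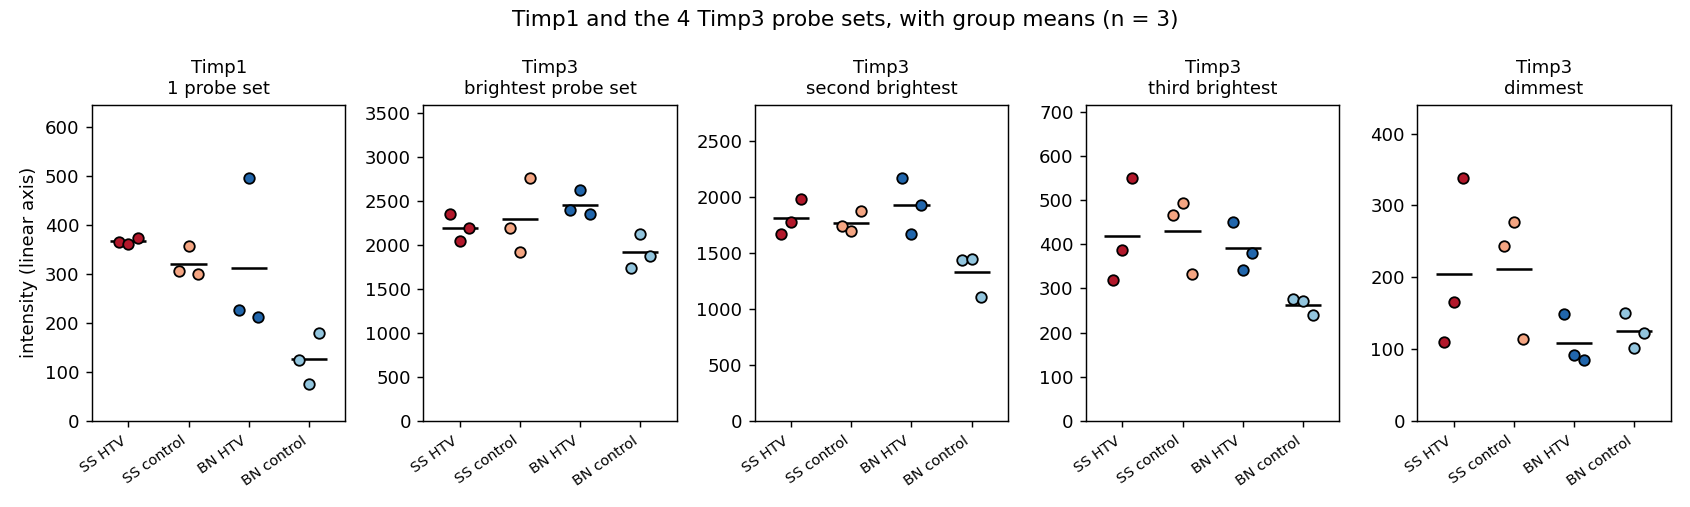
Intensity (linear axis from 0) of the Timp1 probe set and of the 4 Timp3 probe sets on the 12 arrays, by group; points are arrays and bars are group means. The second brightest Timp3 set had its BN HTV arrays, 1670.6 to 2171.6, above all BN control arrays, 1106.7 to 1448.3, as did 10.9% of all tested probe sets. In the dimmest set the HTV and control arrays of each strain overlapped.

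Timp3 encodes the inhibitor that stays bound to the matrix and that blocks ADAM and ADAMTS enzymes as well as MMPs. Of its 4 probe sets, the brightest read 2353.3, 2038.9 and 2192.1 in SS HTV lungs, against 2193.9, 1913.5 and 2761.4 in SS control lungs. It read 2389.0, 2622.4 and 2348.7 in BN HTV lungs, against 1738.6, 2126.7 and 1871.6 in BN control lungs. The SS groups overlapped and the BN groups did not, which held for 26.6% of probe sets in BN lungs. The change was -0.05 ± 0.13 in SS (adjusted p = 0.845) and 0.36 ± 0.13 in BN lungs (adjusted p = 0.123), and without SS control 3 the BN value was called (0.36, adjusted p = 0.0380, all limma).

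The other Timp3 probe sets disagreed in call. The second brightest read 2171.6, 1670.6 and 1931.7 in BN HTV lungs, against 1435.9, 1448.3 and 1106.7 in BN control lungs, and rose by 0.53 ± 0.12 (adjusted p = 0.0241, limma). Its change in SS lungs was 0.03. The third brightest read 451.3, 342.4 and 379.2 in BN HTV lungs, against 276.5, 271.4 and 239.1 in BN control lungs, a difference of 0.54 ± 0.19 that was not called (adjusted p = 0.117, limma). The dimmest had a BN estimate of the other sign, -0.20 ± 0.36, which was not called. In BN lungs 3 of the 4 Timp3 sets thus had positive estimates and 1 was called.

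Timp2 encodes the inhibitor that also forms a complex with pro-MMP2, and it was not called for HTV. It read 1530.7, 1694.0 and 1661.1 in SS HTV lungs, against 1636.8, 1675.2 and 1836.8 in SS control lungs. It read 1252.1, 1407.0 and 1449.3 in BN HTV lungs, against 1560.5, 1250.8 and 1495.7 in BN control lungs. These values are of its brighter set, whose groups overlapped in both strains. The HTV change of this set was -0.07 ± 0.10 in SS lungs (95% interval -0.30 to 0.15) and -0.06 ± 0.10 in BN lungs (-0.29 to 0.16). For this set alone, a change of more than 0.30 either way lay outside both intervals. The second Timp2 set, between 170.2 and 411.6, was not called in either strain, and its intervals were wider. Its change was 0.20 in SS lungs (-0.36 to 0.76) and -0.26 in BN lungs (-0.81 to 0.30). All its BN HTV arrays lay below all its BN control arrays, while groups did not overlap at 26.6% of probe sets in BN lungs.

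Whether the HTV change differed between strains was tested as the SS change minus the BN change. limma called 0 of the 18625 probe sets, 0% of those tested, and 0 of the 9 genes; at an unadjusted p of 0.05 or less it found 3 of the 9 genes and 901 of the 10554 tested genes, 8.54%. The 3 were Timp1, with a difference of -0.98 (95% interval -1.84 to -0.12; adjusted p = 0.577, limma), Mmp2, with 0.39 (0.03 to 0.74; adjusted p = 0.586), and Timp3, with -0.41 (-0.79 to -0.02; adjusted p = 0.587). The intervals of the raised proteinases were wide for Mmp8, 0.53 (-0.93 to 1.99), and for Mmp9, 0.76 (-1.49 to 3.00), and narrower for Adamts1, -0.31 (-0.73 to 0.11). With single arrays left out the estimates ran from -0.23 (without BN HTV 3) to 1.17 (without BN HTV 1) for Mmp8, and from -0.40 to 1.49 for Mmp9 without the same arrays, and 0 of these values were called. A strain difference in these changes was therefore not detectable with 3 arrays a group, and was not shown to be absent.

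Within an array, the log2 level of a proteinase minus that of its inhibitor shows whether the 2 changed unequally, and not their relative amounts. Mmp9 minus Timp1 was 0.44, -1.41 and -0.20 in SS HTV lungs, against -3.79, -3.40 and -4.14 in SS control lungs. It was 1.0, -0.72 and -2.70 in BN HTV lungs, against -2.52, -2.20 and -2.65 in BN control lungs. The SS groups were apart, whereas BN HTV 3 lay below all BN control arrays. The difference changed by 3.39 in SS and 1.65 in BN lungs, with a mean of 2.52 (p = 0.0200, adjusted over the 2 pairs 0.0400; two-sided exact permutation test over 400 arrangements within strains, whose smallest possible p is 0.005). The control levels of Mmp9 have no known distance from background and Timp1 moved less, so this value largely repeats the Mmp9 change and gives its size only roughly. Mmp9 also passed the filter only through its HTV arrays, so a rise in HTV lungs was favoured in advance. The p-value of this pair therefore carries little weight by itself. Mmp2 minus Timp2 changed by 0.26 in SS and -0.13 in BN lungs, with a mean of 0.06 (p = 0.605, adjusted p = 0.605, same exact test).

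Between the strains, 1 member was called in each condition. Timp1 was higher in SS than in BN control lungs, by 1.31 ± 0.28 or 2.48-fold (adjusted p = 0.0114, limma), where 12.2% of probe sets were called and 5.84% were called higher. Without BN control 2 the difference was 1.03 (adjusted p = 0.0602, limma). In HTV lungs the Timp1 difference was 0.33 (95% interval -0.28 to 0.94; adjusted p = 0.539, limma). Mmp2 was higher in SS than in BN HTV lungs, by 0.62 ± 0.12 or 1.53-fold (adjusted p = 0.00626, limma), where 8.24% of probe sets were called and 3.82% were called higher. With the beta-actin ratio as a covariate it was 0.50 (adjusted p = 0.0528, limma). In control lungs Mmp2 differed by 0.23 (adjusted p = 0.215, limma).

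The remaining strain differences were not called for the representative sets. The brighter Timp2 set was higher on every SS array than on every BN array of the same condition. The difference was 0.26 in control and 0.25 in HTV lungs (adjusted p = 0.114 and 0.162, limma). Groups likewise did not overlap at 33.2% of probe sets in control and 29.3% in HTV lungs. The second Timp2 set differed by -0.01 in control lungs, with overlap, and by 0.45 in HTV lungs, without overlap (adjusted p = 0.992 and 0.32, limma). Mmp8 was 0.43 higher in SS than in BN control lungs, also without overlap (adjusted p = 0.586, limma). Of the Timp3 sets, the second brightest (0.42, adjusted p = 0.0451) and the third brightest (0.67, adjusted p = 0.0355) were called higher in SS than in BN control lungs by limma, and the brightest was not (0.25, adjusted p = 0.216). Mmp12 differed by -0.66 in control lungs (adjusted p = 0.386) and, without SS control 3, by -1.35 (adjusted p = 0.027, both limma).

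Of 20 other listed genes of the MMP and TIMP family, 13 had a probe set of their own and 7 were tested. The 7 were Mmp11, Mmp15, Mmp16, Mmp17, Mmp23, Mmp24 and Timp4, and limma called 0 for HTV in either strain. Of all tested probe sets 8.06% in SS and 5.82% in BN lungs were called, so 0 of 7 says little. At an unadjusted p of 0.05 or less in limma there were 2 of the 7 genes in SS and 1 in BN lungs. The share of all probe sets at that unadjusted p is not given here. The changes of the 7 genes ran from -0.26 to 0.45 in SS and from -0.45 to -0.12 in BN lungs. The other 6, among them the stromelysins Mmp3 and Mmp10 and the collagenase Mmp13, read between 1.3 and 54.8 and were below the filter.

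Among ADAM and other ADAMTS genes, 2 of 15 rose in SS and 1 in BN lungs, where 3.91% and 2.96% of probe sets were called higher. Adamts9, another proteoglycan-cutting enzyme, rose by 0.71 ± 0.13 in SS and 0.50 ± 0.13 in BN lungs (adjusted p = 0.00556 and 0.0383, limma). Adam8, a membrane proteinase of leukocytes, rose by 0.75 ± 0.12 in SS lungs (adjusted p = 0.00313, limma). Between strains, Adam10, the sheddase of many surface proteins, was higher in SS than in BN lungs, by 0.70 in HTV and 0.66 in control lungs, and Adam15 was lower, by -0.65 and -0.70. Adam8 was lower in SS than in BN control lungs, by -0.51.

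Of 12 tested activators, binding partners and other inhibitors, 3 rose in SS lungs, where 3.91% of probe sets were called higher, and in BN lungs 3 rose and 1 fell, where 2.96% were called higher and 2.86% lower. Plat, tissue plasminogen activator, rose by 1.15 ± 0.13 in SS and 1.12 ± 0.13 in BN lungs (adjusted p = 0.000183 and 0.000234, limma). Plaur, the receptor that holds urokinase at the cell surface, rose by 1.27 in SS and 1.03 in BN lungs (adjusted p = 0.00369 and 0.0146, limma). Slpi, an inhibitor of neutrophil serine proteinases, rose by 1.25 and 1.18 (adjusted p = 0.0283 and 0.0443, limma). Plau, urokinase itself, fell by 0.56 in BN lungs (adjusted p = 0.0355, limma). Between strains, Bsg, the surface protein EMMPRIN that induces MMPs, was higher in SS than in BN HTV lungs by 0.42, and Lrp1, a receptor that clears MMP and TIMP complexes, was lower, by -0.32 in HTV and -0.31 in control lungs.

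Of 28 tested genes of matrix proteins that these enzymes cut, 3 rose in SS lungs, where 3.91% of probe sets were called higher, the perlecan gene Hspg2 (0.52), Col4a2 (0.60) and Lama5 (0.58), and 1 fell in BN lungs, Col1a1, by 0.62 (adjusted p = 0.0257, limma), where 2.86% were called lower. The median change of the list was 0.24 in SS and -0.16 in BN lungs. In HTV lungs 11 of the 28 were higher in SS than in BN rats and 0 lower, where 3.82% and 4.42% of probe sets were called higher and lower. These counts are without the beta-actin ratio as a covariate, which lowered the calls over all probe sets from 1535 to 581. Col1a1, the main chain of type I collagen, averaged 1503 ± 48.9 in SS HTV and 411 ± 24.5 in BN HTV lungs (SD, n = 3 each). Its difference was 1.83 ± 0.15 (adjusted p = 8.73e-06, limma), beside 0.85 ± 0.15 in control lungs (adjusted p = 0.00314). Lama2 differed by 1.27, Col1a2 by 1.01, Fbn1 by 0.90 and Col5a2 by 0.74 in HTV lungs. In control lungs 7 of the 28 were called higher and 1 lower in SS than in BN rats, where 5.84% and 6.41% of probe sets were.

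AP-1 and NF-kB are transcription factors known to drive several MMP promoters. Of 11 tested genes of their subunits, 7 were called higher in SS and 6 in BN lungs, where 3.91% and 2.96% of probe sets were called higher. Fos rose by 1.33 ± 0.14 in SS and 1.94 ± 0.14 in BN lungs (adjusted p = 0.000104 and 6.61e-06, limma), Fosl2 by 2.19 and 2.31, Junb by 1.44 and 1.74, and Rela by 0.75 and 0.56. The means of Fosl2, Fosb and Fosl1 over the control arrays of both strains lay below the filter, so these genes were tested through the HTV arrays. Of the other 8 genes 5 rose in SS and 4 in BN lungs. Jund was lower in SS than in BN rats, by -2.45 in HTV and -1.58 in control lungs, and was not called for HTV.

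The genes whose log2 levels over the 12 arrays were most like those of 3 members, by Pearson's r among 10553 other tested genes, are a description, since all of them share the 12 arrays and the groups these fall into. For Mmp9 they were Slc2a3, a glucose transporter (r = 0.98), F2rl2, a protease-activated receptor (0.977), Pglyrp1, a peptidoglycan-binding protein of neutrophil granules (0.974), and Mmp8 (0.972). Pglyrp1 read 500.0, 337.3 and 99.9 in BN HTV lungs, against 46.3, 63.4 and 78.3 in BN control lungs, with BN HTV 3 again lowest of the HTV arrays. For Adamts1 they were Errfi1, a feedback inhibitor of the EGF receptor (0.978), Cebpd, a transcription factor (0.978), Nr4a3, an inducible nuclear receptor (0.97), and Smim3 (0.969). For Timp1 they were Ttc9 (0.921), Dolk (0.915), Il6st, the shared receptor chain of the interleukin-6 family (0.912), and Tspo, a mitochondrial membrane protein (0.904). Il6st averaged 1290 ± 141 in BN HTV and 1006 ± 63.6 in BN control lungs (SD, n = 3 each). Between members, r was 0.76 for Mmp9 and Adamts1 and 0.55 for Mmp9 and Timp1.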

How the data were processed

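RNA of 12 right lungs, 3 per group, was extracted with Trizol, labelled with biotin from 6 µg of total RNA and hybridised to Affymetrix arrays, per the labels' protocols. The authors deposited linear intensity values per probe set. The submitters' processing notes name MAS5, with no version. Every array had a trimmed mean of 150, over values from the 2nd to the 98th percentile, so nothing was rescaled. Precision is limited by the number of arrays. A single gene was named by the platform annotation for 20826 probe sets, more than 1 for 436 and none for 9780; 57 control probe sets were left out.

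The 4 group means were fitted over all arrays in limma 3.58.1 (R 4.3.3) on log2(intensity + 16), keeping probe sets at or above the 40th percentile of the mean. The fit used eBayes with a trend in intensity and had 8 residual degrees of freedom, and Benjamini-Hochberg adjustment was made within each of 6 comparisons. Pairs of genes were compared by exact permutation. Named were all 9 genes with every probe set, up to 6 called genes of each list, and the 4 genes most like Mmp9, Timp1 and Adamts1. The genes, lists and tests were chosen with earlier results of these data known. On data simulated for HTV in SS lungs over 18625 probe sets, the fit recovered 24% of 100 changed by 0.5 and 98% of 100 changed by 2 log2 units, with 6 false calls. The alternatives tried are named in the closing section. Promoter windows came from a RefSeq table of GRCr8.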

Additional observations from a re-analysis of the deposited data

How the results depend on the processing

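The fits were repeated with pseudocounts of 1 and 64, no filter, a filter at the 60th percentile, median centring, quantile normalization, eBayes without a trend, array weights, a fit of only the arrays compared, averaging of each gene's probe sets, the beta-actin ratio as a covariate, SS control 3 and BN HTV 3 left out together, and each array left out in turn. Over 54 results for single genes these gave 1260 values, of which 1217 stayed on the same side of the threshold. Of the rest, 32 lost and 11 gained a call. The number of called values that changed sign was 0. Among the 1217 were 46 values, called in neither setting, that changed sign (-0.63 to 0.51, lowest adjusted p 0.406 in limma). Mmp9 was too dim to be tested at the 60th percentile, as was Mmp12, and with a pseudocount of 1. The number of the 9 genes called for HTV in BN lungs, 4, was 2 with no filter and 2 with only the arrays compared, and 1 to 5 without single arrays; in SS lungs, 3, it was 2 to 3 without single arrays, Mmp9 missing the threshold without SS HTV 1 (3.16, adjusted p = 0.0573, limma). The BN call of Mmp9 was lost in 8 of the 12 fits without 1 array (highest adjusted p 0.162, limma) and with a pseudocount of 64 (1.79, adjusted p = 0.0618). The number that differed between strains in control lungs, 1, was 3 with array weights (Mmp2 and Mmp12 beside Timp1), 2 with the mean over probe sets and 2 with the beta-actin covariate (Timp3 in both), 2 with both arrays left out (Mmp12) and 0 to 2 without single arrays. In HTV lungs, 1, it was 2 with quantile normalization (Timp2, 0.32, adjusted p = 0.0358, limma), 0 with the beta-actin covariate and 1 to 2 without single arrays (Mmp8 without BN HTV 1, 1.60, adjusted p = 0.0311, limma). The number whose HTV change differed between strains was 0 under all these settings. The change in Mmp9 minus Timp1 ran from 1.46 to 3.81, with adjusted p of 0.01 to 0.05 by the exact permutation test. Where a call moved, the cause was not tested. No paired analysis was possible because the labels give each array an animal code of its own and no number shared between groups. Values near the lowest intensities, such as Mmp9 in control lungs, have no known distance from background.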
